A study of Mus musculus with 6 samples.

Results

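Primary hepatocytes treated with the vehicle DMSO were described here as a baseline, with no comparison to treated cells. The detection p of a probe is the share of negative control probes that are brighter. Named genes were taken as members when a probe had a detection p below 0.05 on both DMSO arrays. By that rule 7066 of 16590 named genes (42.6%) and 9916 of 25697 probes (38.6%) were members. The donor mice were male, 10 weeks old and wildtype, with a C57Bl6/J background. Total RNA was hybridised to Illumina mouse bead arrays, on which each probe is read from many beads. The DMSO group had 2 of the 6 arrays of the series, and the remaining 4 carried RNA of cells given agonists of the nuclear receptor PPAR-delta. The labels call arrays A and B technical replicates, so every SD here (n = 2) is the spread between arrays and holds no spread between cultures or animals.

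Hepatocytes are the main cell type of the liver. They secrete most plasma proteins, assemble lipoproteins, make urea and bile acids, and carry the cytochrome P450 and conjugating enzymes that clear drugs and steroids. A small group of transcription factors, among them the HNF1, HNF4, FOXA and C/EBP families, is known to maintain this program. Hepatocytes that are isolated and plated are known to lose part of it while they spread and rebuild their cytoskeleton, and isolation is known to switch on stress and inflammatory genes.

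Detection was even between the arrays, with 10550 probes detected on array A and 10542 on array B. A median of 41 beads per probe was read on array A and 40 on array B, and the fewest was 12 on each. Median intensity before normalization was 272 on array A and 263 on array B. Levels are given below as log2 of the background-corrected, normalized intensity, and the level of a gene is that of its brightest detected probe. Over the detected genes the levels ran from 6.28 to 16.13 with a median of 9.45. A position in the order is a position by probe signal and not by mRNA copies, because probes bind their targets to different degrees. Among 1719 genes with at least 2 detected probes, the probes of a gene differed by a median of 1.46 on the log2 scale.

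3 of the 4 hepatocyte markers were bright. Ttr, which encodes the thyroxine and retinol carrier transthyretin, was at 15.88 on array A and 16.04 on array B and stood 15th of the 7066. Apoa1, the main protein of high-density lipoprotein, was at 15.69 and 15.72 and stood 25th. Serpina1a, an alpha-1 antitrypsin paralog, was at 13.94 and 14.14 and stood 191st. These values placed all 3 among the brightest 10% of the detected genes on both arrays. The fourth marker, Alb, which encodes serum albumin, was not detected. Its single probe read 258 on array A and 252 on array B before normalization, with detection p of 0.222 and 0.228, and it passed the threshold on 0 of the 6 arrays of the series (detection p 0.0815 to 0.332). Whether the probe or the RNA accounts for the Alb reading was not tested. The label of the cells comes from the sample titles, which name primary hepatocytes. The lists that follow were chosen with earlier results of these data known, so they describe the cells and do not test that label.

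Alb and Fga, which encodes the fibrinogen alpha chain, are both classical liver genes whose promoters hold a match to the HNF1 motif, although the Alb probe was not detected and Fga stood 71st, at 15.14 on array A and 14.95 on array B. Both promoters are shown as RefSeq gives them on build GRCm38.p6, from 250 bases before the gene's start to 50 bases after it. Capitals mark the match to GTTAATNAT or its reverse complement. The Alb window is chr5:90460620-90460919 on the plus strand, with the match from position -32 relative to the start. The Fga window is chr3:83025903-83026202 on the plus strand, with the match on the opposite strand from position -46.
Alb: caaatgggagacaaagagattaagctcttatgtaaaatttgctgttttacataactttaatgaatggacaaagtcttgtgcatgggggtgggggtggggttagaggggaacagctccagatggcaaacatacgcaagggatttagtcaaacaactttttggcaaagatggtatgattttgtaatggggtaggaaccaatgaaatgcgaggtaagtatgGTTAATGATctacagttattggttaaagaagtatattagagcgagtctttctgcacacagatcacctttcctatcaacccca
Fga: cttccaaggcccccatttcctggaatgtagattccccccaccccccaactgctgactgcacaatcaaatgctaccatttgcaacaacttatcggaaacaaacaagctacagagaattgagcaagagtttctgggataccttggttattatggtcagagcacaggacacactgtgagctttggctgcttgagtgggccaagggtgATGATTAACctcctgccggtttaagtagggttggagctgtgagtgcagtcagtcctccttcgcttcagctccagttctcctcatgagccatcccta

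The HNF1 motif, searched on both strands, was held by 5 of 78 promoters (6.41%) of detected genes from the secreted protein lists. It was in 2 of 88 promoters (2.27%) of the 100 brightest genes, in 0.536% of the promoters of all detected genes and in 0.801% of all 32851 promoters. The TATA box, spelled TATAAA, was in 18 of the 88 promoters of the 100 brightest genes (20.5%), in 7.99% of those of detected genes and in 13.6% of all promoters. Among undetected genes, TATAAA was in 15.1% of promoters and the HNF1 motif in 0.76%. The HNF4 motif CAAAGTCCA was in 0 of those 88 and in 0.475% of all promoters, which says only that these letters were not in these windows. A gene can have several promoters in the table, and a match is a description of the letters and not a bound site. Exact 95% intervals, which cover counting error only, ran from 2.11% to 14.3% for HNF1 in the secreted lists and from 12.6% to 30.4% for TATAAA in the brightest 100.

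The brightest genes of the vehicle-treated cells were a mixture of secreted liver proteins, ribosomal proteins and genes of iron, metal and oxidant handling. Of the brightest 30 genes, 13 belonged to the lists of secreted proteins and 4 encoded ribosomal proteins. Fth1, the ferritin heavy chain that stores iron, was at 16.13 on both arrays. Apoa2, a structural protein of high-density lipoprotein, was at 16.13 and 16.12. Hpx, the haem scavenger hemopexin, was at 16.12 and 16.11. They were the brightest 3 genes, with array values from 16.11 to 16.13, a range that also held Serpina1b on array A (16.12). Next in order came Serpina1b, the metallothionein Mt1, the ribosomal protein gene Rplp1, the protease inhibitor Cstb, the plasma protein Ambp, the peroxidase Gpx1 and Serpina1d.

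**Figure D1:**
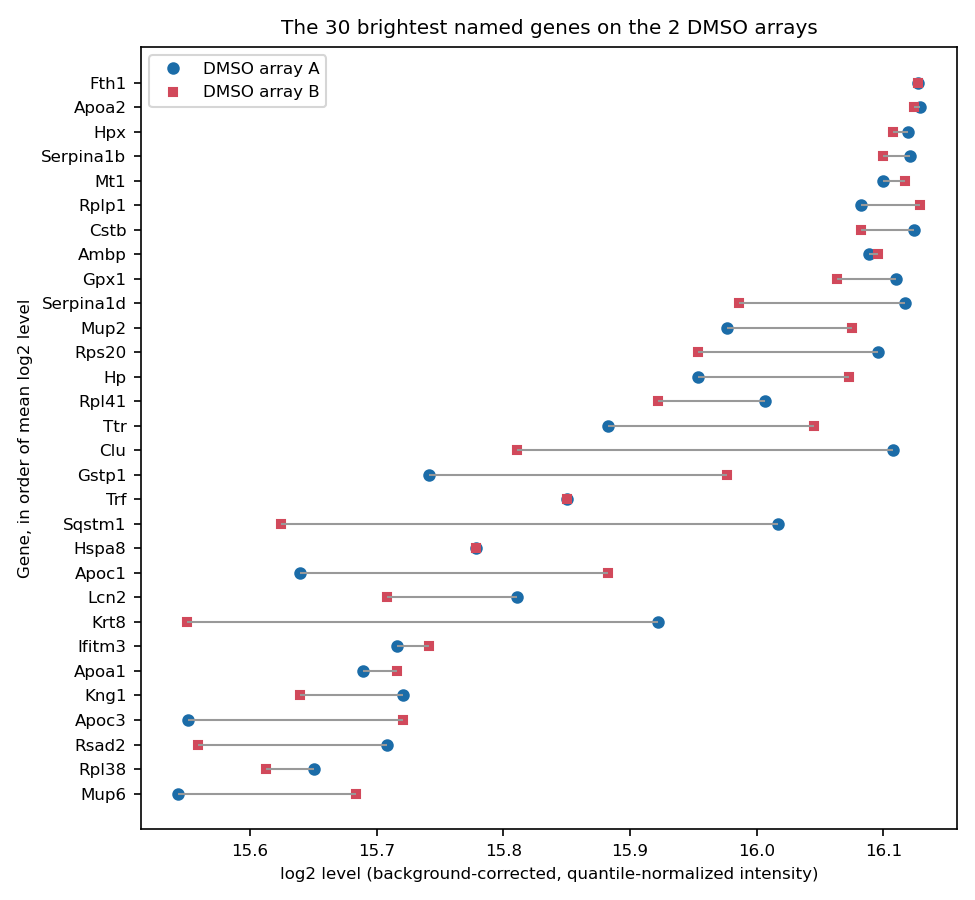
The 30 brightest named genes of vehicle-treated hepatocytes in order of mean log2 level, with circles for DMSO array A, squares for DMSO array B and a line joining them. The lines of neighbouring genes overlap in all but 1 of the 29 neighbouring pairs, and Sqstm1, Krt8 and Clu have the widest gaps.

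The exact order within the top was not resolved. In only 1 of the 29 neighbouring pairs among the brightest 30 did both array values of the brighter gene lie above both of the next gene. Arrays A and B shared 26 of their own brightest 30 genes and 90 of their brightest 100. Beads of a probe also read more alike at the top of the scale. The bead standard error had a median of 9.34% of intensity over 727 genes between 5000 and 20000, and of 1.54% over the 13 genes above 65000. Whether those beads were near the limit of the scanner was not tested.

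**Figure D2:**
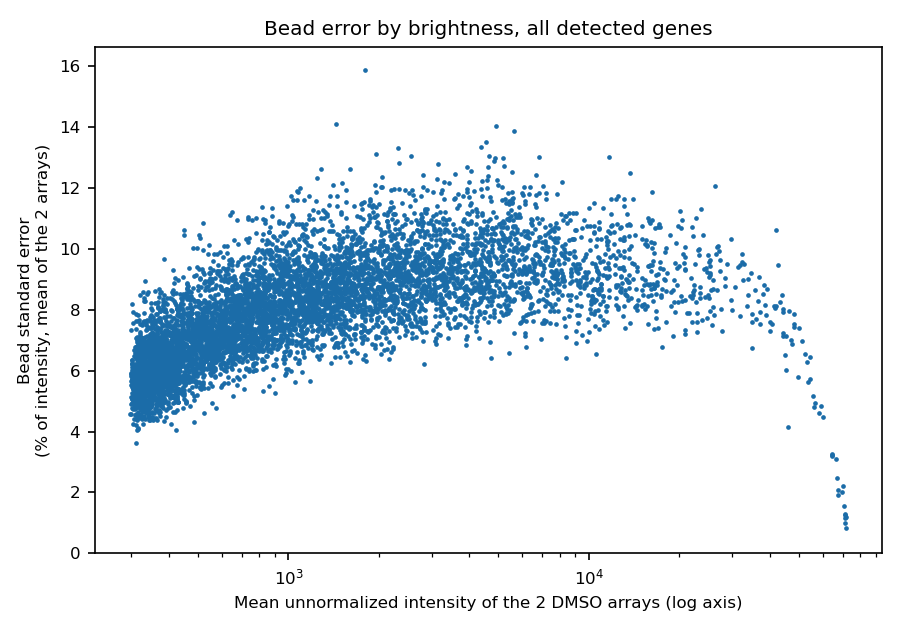
Bead standard error as a percentage of intensity, mean of the DMSO arrays, against mean unnormalized intensity on a log axis, 1 point per detected gene. The median error was 6.88% below 1000, between 8.51% and 9.34% from 1000 to 50000, and dropped to a median of 1.54% above 65000.

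Probe signal was spread over many genes. The shares below would be too low for the brightest genes if their beads were near the limit of the scanner, which was not tested. The brightest 100 held 23.9% of the background-corrected signal of all detected genes on array A and 24.0% on array B. The number of genes that together held 50% of it was 417 on array A and 411 on array B. Among the brightest 100, 18 were in a secreted protein list and 22 had a ribosomal protein symbol. Besides the named genes, 561 detected probes had no gene name in the platform annotation, and 8 of them were brighter than the 30th gene.

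The secreted plasma proteins were nearly complete, with 23 of 26 measured members detected (88.5%, against 42.6% of all named genes) and a median level of 14.50. Counts of the lists below stand against the same 42.6%. After Hpx and Serpina1b, the carriers and inhibitors Ambp (16.09 on array A and 16.10 on array B) and Serpina1d (16.12 and 15.99) were the brightest. Hp, which encodes the haemoglobin binder haptoglobin, was at 15.95 and 16.07. Trf, the plasma iron carrier transferrin, was at 15.85 on both arrays. The antitrypsin paralogs are near-identical and their probes may share targets, so the levels of Serpina1a, Serpina1b, Serpina1c, Serpina1d and Serpina1e are uncertain for each single gene. Undetected members were Alb, A1bg and Pzp.

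Of 17 measured apolipoproteins and lipoprotein assembly genes, 15 were detected (88.2%, against 42.6% of all named genes), at a median level of 12.81. Apoc1 was at 15.64 on array A and 15.88 on array B. Apoc3, an inhibitor of lipoprotein lipase, was at 15.55 and 15.72. The list was wide, for Mttp, the lipid transfer protein that loads apolipoprotein B, was at 8.42 and 8.36 and Apoc2, the activator of lipoprotein lipase, at 6.90 and 7.32. Apoa5 and Pltp were not detected.

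Coagulation factors were detected in 20 of 21 cases, at a median level of 12.14, and complement components in 17 of 18, at levels from 7.35 to 14.05. Kng1, the precursor of bradykinin, was at 15.72 on array A and 15.64 on array B. Serpinf2, the plasmin inhibitor, was at 13.58 and 13.30. Fgg, the fibrinogen gamma chain, was at 13.42 and 13.31, whereas the probe of Fgb, the beta chain of the same protein, had detection p of 0.941 and 0.981. The 3 chains of fibrinogen therefore read as bright, bright and undetected. C8g, a subunit of the membrane attack complex, was at 14.00 and 14.10, and Serping1, the inhibitor of the C1 proteases, was at 13.98 and 13.95. Cfi, a protease that limits complement, was at 13.35 and 13.37 and C2 at 13.47 and 13.14. Among complement genes C1ra was not detected.

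Acute phase genes, which the liver makes in inflammation, were detected in 14 of 15 cases with a median of 12.38. Lcn2, the siderophore binder lipocalin 2, was at 15.81 on array A and 15.71 on array B and stood 22nd. Serpina3n was at 14.44 and 14.51, and Cd14, the endotoxin co-receptor, at 14.49 and 14.45. Crp stood 232nd at 13.98 and 13.80. Of the serum amyloid A genes, Saa1 was at 11.55 and 11.38, while Saa2 read 10.65 on array A and 11.42 on array B, a gap wider than that of 95% of detected genes. Steap4 was the undetected member.

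**Figure D3:**
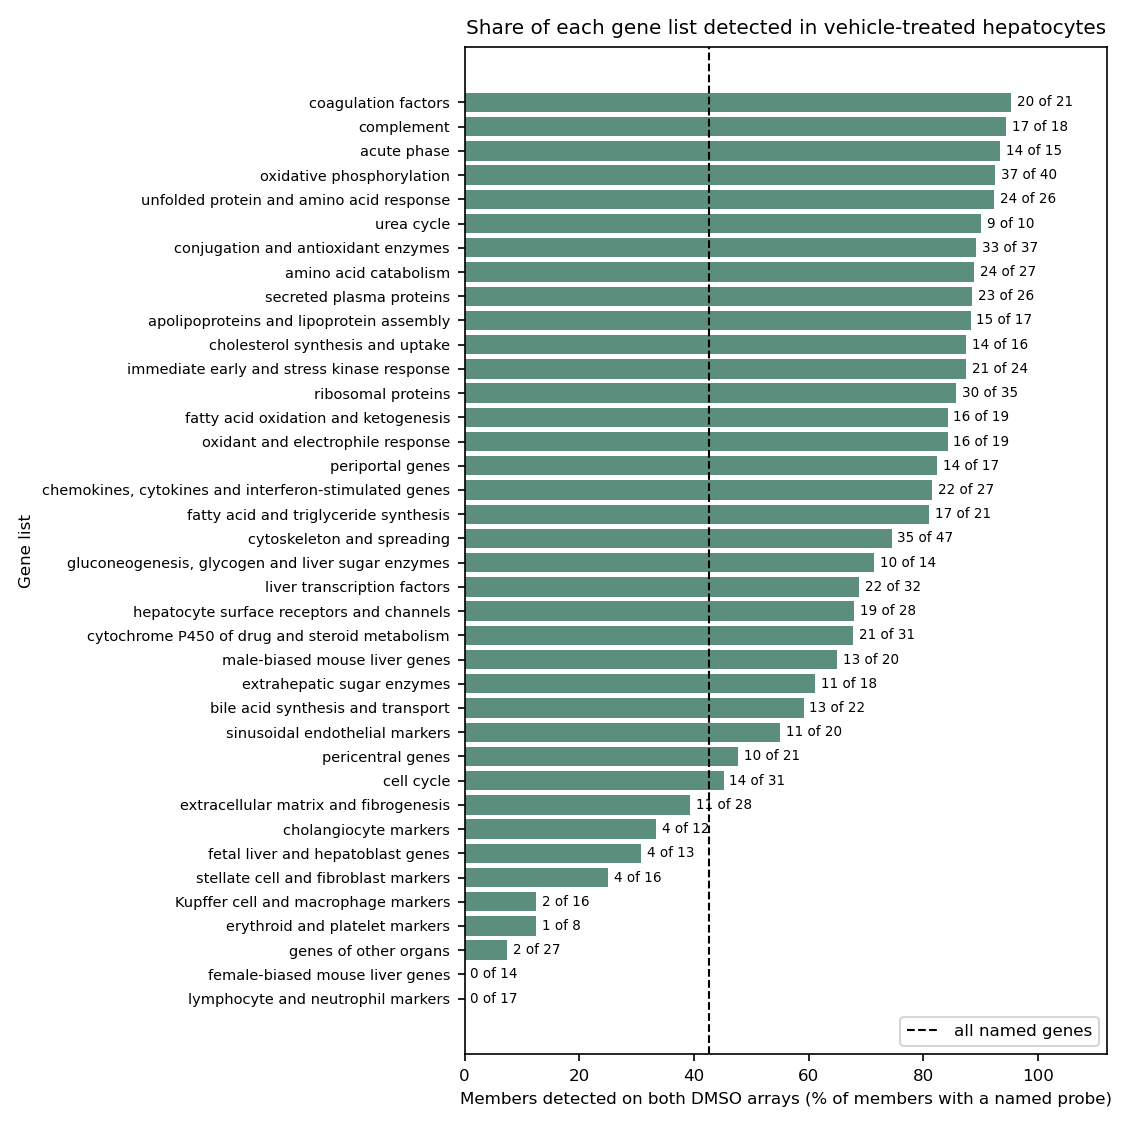
Share of the measured members of each of 38 gene lists that was detected on both DMSO arrays, in percent, with counts at the bars. The dashed line is the 42.6% of all named genes, and coagulation, complement and acute phase genes stand at the top, whereas female-biased genes and lymphocyte and neutrophil markers stand at 0.

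Nitrogen metabolism was present at moderate levels. In the urea cycle 9 of 10 members were detected at a median of 10.30. Ass1, the argininosuccinate synthase, was at 13.10 on array A and 12.98 on array B. Cps1, which commits ammonia to the cycle, was at 11.60 and 11.29, and Arg1, which releases urea, at 11.39 and 11.37. Glud1, the glutamate dehydrogenase, was at 10.75 and 10.43. Otc, which makes citrulline, was at 7.49 and 7.43, in the lower part of the detected range. Glul, the glutamine synthetase of pericentral hepatocytes, was not detected. Among amino acid catabolism genes 24 of 27 were detected at a median of 10.26, led by Gnmt, a glycine methyltransferase that consumes methyl donor, at 14.97 and 15.14, and Mat1a, which makes that donor, at 13.75 and 13.72. Fah, the last enzyme of tyrosine breakdown, was at 12.92 and 12.87, and Ftcd, of histidine breakdown, at 12.69 and 12.49. Tat, Tdo2 and Aass were not detected, and the Tat probe, for the enzyme that starts tyrosine breakdown, had detection p of 0.985 and 0.975.

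Of 14 measured genes of gluconeogenesis, glycogen and liver sugar metabolism, 10 were detected at a median of 10.10. Khk, the fructokinase, was at 13.70 on array A and 13.37 on array B. Pygl, the liver glycogen phosphorylase, was at 12.34 and 12.32, and Fbp1, the gluconeogenic fructose bisphosphatase, at 11.80 and 11.73. Tkfc, which carries fructose carbon onward, was at 11.55 and 11.43. G6pc, which releases glucose, was lower, at 9.10 and 9.20. Pck1, the cytosolic enzyme that starts gluconeogenesis, was not detected (detection p 0.0827 and 0.206), nor were Slc37a4, Gys2 and Gbe1. On the list of sugar enzymes typical of other tissues 11 of 18 were detected (61.1%, against 42.6% of all named genes). The median of those detected was 10.94. Gapdh was at 15.48 and 15.49, Ldha at 13.54 and 13.72, Tpi1 at 13.45 and 13.30, and the glucose carrier Slc2a1 at 12.94 and 12.82. That list mixes housekeeping with tissue-typical enzymes, and Hk1, Slc2a3, Pfkp, Eno2, Pgk1 and Fbp2 were not detected.

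Fatty acid oxidation genes were detected in 16 of 19 cases at a median of 10.71, and genes of fatty acid and triglyceride synthesis in 17 of 21 at 10.23. Acadm, the medium-chain acyl-CoA dehydrogenase, was at 13.88 on array A and 13.94 on array B, and Etfa, which takes its electrons, at 13.33 and 13.40. Etfb, the partner of Etfa, was at 12.37 and 12.30 and the peroxisomal thiolase Acaa1b at 11.95 and 12.13. Cpt1a, the carnitine acyltransferase that gates entry of fatty acids into mitochondria, was not detected (detection p 0.336 and 0.144), and neither were Hadh and Decr1. Decr1 missed the rule on array A alone (detection p 0.0514 and 0.0476), and Hadh had detection p of 0.0501 and 0.178. On the synthetic side Scd1, the stearoyl-CoA desaturase, was at 14.53 and 14.66 and Acly, which supplies cytosolic acetyl-CoA, at 14.02 and 13.97. The desaturase gene Fads1 was at 13.95 and 13.89, and Dgat2, which completes triglycerides, at 13.38 and 13.31. Fasn, Scd2, Elovl3 and Gpam were not detected. In cholesterol synthesis and uptake 14 of 16 were detected at a median of 9.76, led by Hmgcs1, at the head of the pathway, at 13.14 and 13.31. Fdps was at 12.67 and 12.37, Insig2, which holds the pathway's activator in the endoplasmic reticulum, at 12.02 and 12.04, and Sqle, the squalene epoxidase, at 11.59 and 11.56. Idi1 and Sc5d were undetected.

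Bile acid genes were less complete, with 13 of 22 detected (59.1%, against 42.6% of all named genes) at a median of 10.77. Hsd3b7, a sterol dehydrogenase common to the synthetic routes, was at 14.68 on both arrays. Cyp7b1, of the alternative route, was at 13.56 and 13.67, and Cyp27a1, which starts that route, at 12.95 and 12.86. Cyp7a1, the rate-limiting enzyme of the classical route, was not detected (detection p 0.475 and 0.658). Among the transporters Abcb4, the canalicular phospholipid exporter, was at 13.01 and 13.07 and Abcb11, the bile salt export pump, at 8.52 and 8.83, whereas the uptake carriers Slc10a1, Slco1a1, Slco1a4 and Slco1b2 were all undetected. Cyp39a1, Akr1d1, Amacr and Abcg8 were undetected too. The Slc10a1 probe had detection p of 0.58 and 0.654.

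Cytochrome P450 genes of drug and steroid metabolism were detected in 21 of 31 cases (67.7%, against 42.6% of all named genes). The median of those detected was 12.67. Cyp2e1, which oxidises ethanol and acetaminophen, was at 15.50 on array A and 15.38 on array B and stood 41st. Cyp2d9 was at 14.52 and 14.74, Cyp2a5 at 14.62 and 14.46 and Cyp2f2 at 14.09 and 13.87. The undetected members included Cyp1a1, an enzyme induced through the aryl hydrocarbon receptor, the female-biased Cyp2b9 and Cyp2b13, and Cyp2c38, Cyp2c39 and Cyp2c40. Members of the Cyp2c, Cyp2d and Cyp3a groups are similar in sequence, so their single levels are uncertain. Conjugation and antioxidant enzymes were detected in 33 of 37 cases at a median of 12.01, led by Gpx1 at 16.11 and 16.06, Gstp1 at 15.74 and 15.98, Prdx1 at 15.43 and 15.47 and Gsta1 at 15.23 and 15.25. Ugt2b5, Sult1b1, Gstm3 and Nat1 were undetected.

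Transcription factors read lower than the enzymes and secreted proteins, at a median of 9.05 for those detected. They were detected in 22 of 32 cases (68.75%, against 42.6% of all named genes). Xbp1, a factor of secretory cells, was at 13.98 on array A and 13.91 on array B. Atf5 was at 13.88 and 13.84, Cebpb, a factor of the acute phase response, at 13.62 and 13.75 and Foxa3 at 12.61 and 12.71. Hnf4a, the central nuclear receptor of the hepatocyte, stood 2353rd at 10.31 and 10.60. Cebpa, the C/EBP member typical of quiescent liver, stood 6215th at 6.81 and 7.38. Ppara and Ppard, which encode the alpha and delta subtypes of the fatty acid receptor PPAR, were undetected, and the Ppara probe had detection p of 0.791 and 0.524. Hnf4g, Onecut1, Nr0b2 and Ahr were undetected as well.

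Surface receptors and channels were detected in 19 of 28 cases (67.9%, against 42.6% of all named genes) at a median of 10.20. Aqp9, a glycerol channel, was at 13.49 on array A and 13.42 on array B. Asgr1, a subunit of the asialoglycoprotein receptor, was at 13.26 and 13.49, and its partner Asgr2 was at 8.72 and 9.28. Egfr was at 13.03 and 13.04, and the water channel gene Aqp8 at 12.80 and 12.68. Undetected were Insr, Igf1r, Met, Fgfr4, Klb and Il6ra among others.

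**Figure D4:**
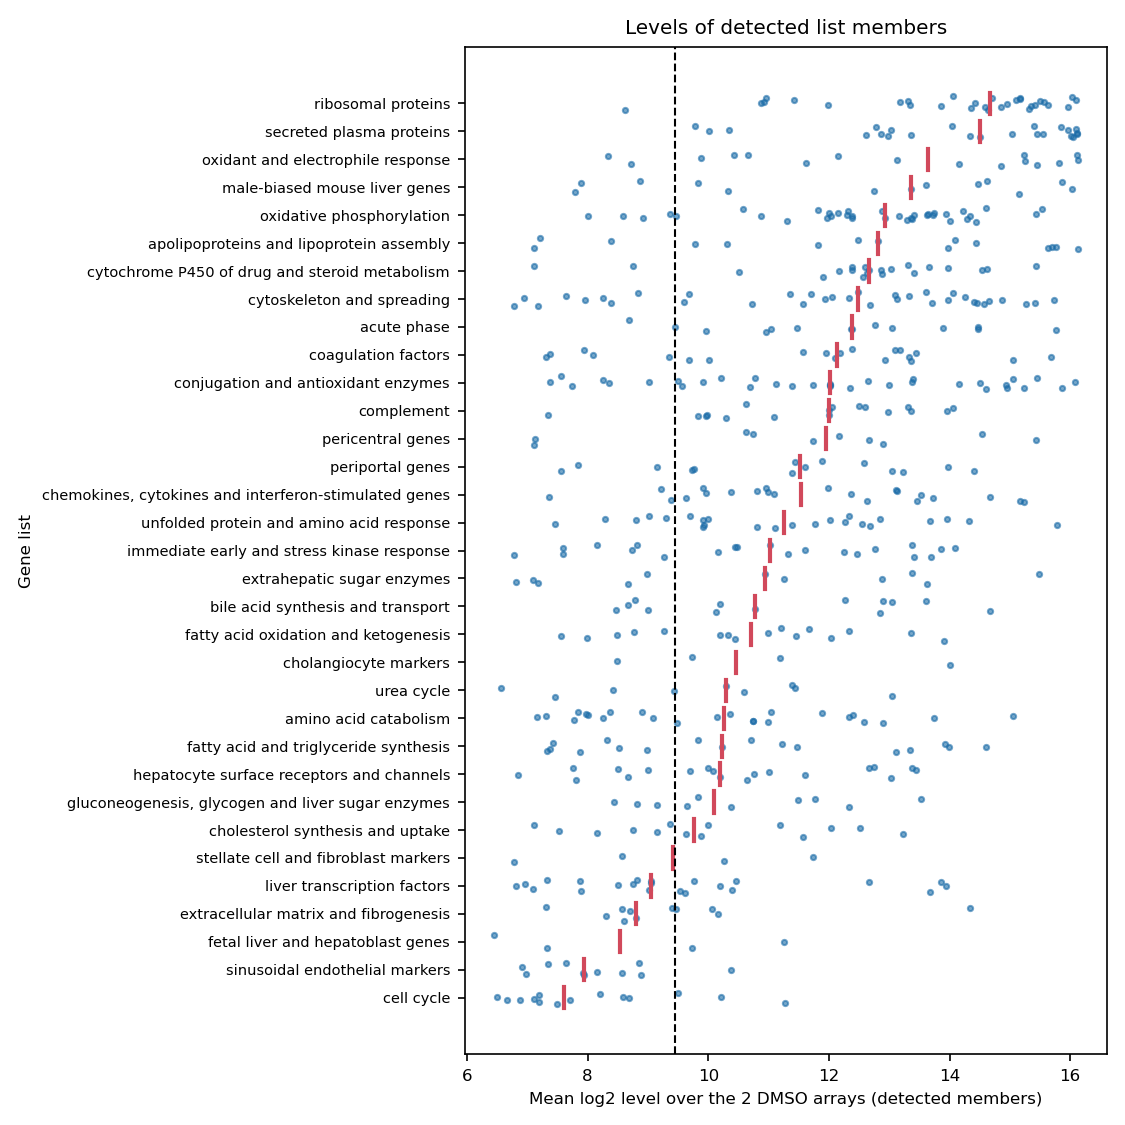
Mean log2 level over the DMSO arrays of each detected member (points) of the gene lists, ordered by their medians (red bars). The dashed line is the median of all detected genes, 9.45. Ribosomal and secreted plasma protein genes lie highest and cell cycle genes lowest, and most lists span more than 5 on the log2 scale. Lists with fewer than 4 detected members are not drawn.

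Genes with a known sex bias in mouse liver read apart. Of 20 male-biased mouse liver genes 13 were detected (65%, against 42.6% of all named genes), at a median of 13.36. Of 14 female-biased genes 0 were detected on both arrays, and 1 was with detection on at least 1 array. Mup2, a major urinary protein, was at 15.98 on array A and 16.08 on array B, and Mup21 at 15.18 and 15.11. Mup6, outside the list, stood 30th at 15.54 and 15.68. Gstp1 and Cyp2d9, given above, are on the same list. The male-biased genes Elovl3, Slco1a1, Cyp2u1, Ugt2b38, Moxd1 and Susd4 were nevertheless undetected. Mup probes may share targets among the many near-identical Mup genes. On the female-biased list Sult3a1, Cyp3a41a, Cyp3a16 and Cyp3a44 were among the undetected genes.

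Periportal genes, which are typical of hepatocytes near the portal vein, were detected in 14 of 17 cases (82%) at a median of 11.53. Pericentral genes, typical of hepatocytes near the central vein, were detected in 10 of 21 cases (47.6%, close to the 42.6% of all named genes), and the median of those detected was 11.95. On the periportal side Serpina1c was at 14.47 and 14.35, Cyp2f2 at 14.09 and 13.87, Igf1 at 13.27 and 13.18 and Ass1 at 13.10 and 12.98. On the pericentral side Cyp2e1 and Cyp2a5 were the brightest, followed by Cyp27a1 and by Cyp1a2 at 12.64 and 12.70. Undetected pericentral members included Glul, Lgr5, Axin2, Rnf43, Tbx3 and Cyp7a1, of which Tbx3 missed the rule on array B alone (detection p 0.0213 and 0.0501). On the periportal list Pck1, Etnppl and Alb were undetected, of which Etnppl missed the rule on array B alone (detection p 0.0351 and 0.0526). Fetal liver and hepatoblast genes were detected in 4 of 13 cases (30.8%, against 42.6% of all named genes). Aldoa, an aldolase of many tissues, was at 11.19 and 11.31, and Sox9, a factor of biliary and progenitor cells, at 9.59 and 9.86. Akr1b8 was at 7.49 and 7.17 and the growth factor gene Igf2 at 6.38 and 6.51. Igf2bp1, Igf2bp3, Gpc3, Dlk1 and Cd24a were undetected. Afp, the fetal counterpart of albumin, had detection p of 0.123 on array A and 0.0464 on array B and so missed the rule on 1 array.

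Across 14 lists of liver functions, 256 of 317 measured genes (80.8%) were detected, against 42.6% of all named genes, and 61 were not. Of the 61, 51 were read by a single probe, 14 had detection p above 0.5 on both arrays and 6 were detected on 1 array. Those 6 were Aass, Gys2, Slco1a4, Met and Scarb1, on array A, and Decr1, on array B. Genes that every cell uses were also among the undetected. They included Pgk1, an enzyme of glycolysis, and Actg1, cytoplasmic gamma actin, with detection p of 0.402 and 0.702. Of 75 measured ribosomal protein and oxidative phosphorylation genes, 8 (10.7%) were undetected. An undetected probe therefore does not show that a gene was silent in these cells. In addition, 1578 of 4776 genes with several probes had both detected and undetected probes.

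Ribosomal protein genes were detected in 30 of 35 cases at a median of 14.67, the highest of the lists, and oxidative phosphorylation genes in 37 of 40 at 12.93. Rplp1 was at 16.08 on array A and 16.13 on array B, Rps20 at 16.10 and 15.95, Rpl41 at 16.01 and 15.92, and Rpl38 at 15.65 and 15.61. Ribosomal protein genes have many processed pseudogenes, which may share probes with them. Atp5g3 and Atp5b, subunits of the ATP synthase, were at 15.56 and 15.50 and at 15.48 and 15.39. Cox5b, of cytochrome oxidase, was at 14.70 and 14.50, and Ndufa4 at 14.21 and 14.67. Rpl6, Rpl14, Rplp2, Rps23 and Rpsa, and of the respiratory genes Ndufs1, Uqcrfs1 and Atp5k, were undetected.

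The cytoskeletal gene Krt8 and the oxidant response genes Fth1, Mt1 and Sqstm1 were among the brightest 30. The series holds no array of fresh liver, so the values that follow are levels and not changes. Cytoskeleton and spreading genes were detected in 35 of 47 cases at a median of 12.49. Krt8, a keratin of simple epithelia, was at 15.92 on array A and 15.55 on array B, and its partner Krt18 at 14.67 and 14.48. Tuba1b, an alpha tubulin, was at 15.43 and 15.42, Actb at 15.37 and 15.18 and Tubb5 at 14.89 and 14.83. Vim, an intermediate filament of mesenchymal cells, stood 3243rd at 9.84 and 9.53. Undetected members included Actg1, Acta1, Krt7, Krt19, Krt20 and Tubb2a.

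Oxidant and electrophile response genes, many of them targets of the factor NRF2, were detected in 16 of 19 cases at a median of 13.65. Besides Fth1 and Mt1, Sqstm1, which encodes the autophagy adaptor p62, was at 16.02 on array A and 15.62 on array B. Srxn1, sulfiredoxin, was at 15.25 on both arrays, and Osgin1 at 14.73 and 14.97. Not all targets of the factor were bright, for Nqo1 stood 4410th at 8.90 and 8.54 and Gclc 4820th at 8.32 and 8.37. Ftl1, Gpx2 and Aldh3a1 were undetected.

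Unfolded protein and amino acid response genes were detected in 24 of 26 cases at a median of 11.25. Hspa8, a constitutive chaperone, was at 15.78 on both arrays and P4hb, a disulfide isomerase of the endoplasmic reticulum, at 14.26 and 14.40. Chac1 and Asns, both targets of ATF4, were at 13.89 and 14.02 and at 13.66 and 13.68. Hspa5, the chaperone BiP that is the usual marker of the unfolded protein response, stood 4052nd at 9.13 and 8.91. Hspa1a and Hsp90aa1 were undetected, of which Hsp90aa1 missed the rule on array A alone (detection p 0.0852 and 0.00376).

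Immediate early and stress kinase genes were detected in 21 of 24 cases at a median of 11.03. Egr1, a zinc finger factor induced within minutes of growth signals, was at 14.04 on array A and 14.14 on array B, and Dusp1, a phosphatase of stress kinases, at 13.73 and 13.99. Cdkn1a, the cell cycle inhibitor p21, was at 13.63 and 13.76, and Ier3 at 13.43 and 13.40. Fos stood 5034th at 7.94 and 8.37, and Fosb, Ier2 and Btg2 were undetected. Cell cycle genes were detected in 14 of 31 cases (45.2%, close to the 42.6% of all named genes) with a median of 7.61, the lowest of the lists with at least 4 detected members. Cdk2 was at 11.39 and 11.16, and Ccnd3 at 10.27 and 10.17. Other detected probes of Cdk2 were dimmer, at mean levels of 8.43 and 8.25, and both genes had undetected probes. Genes of DNA synthesis and mitosis were found on both sides of the detection rule. Tyms, the thymidylate synthase, was at 9.62 and 9.38, Mcm4, a subunit of the replicative helicase, at 8.70 and 8.68, and Foxm1 and Cdc20 were detected as well. Cdc20 was dim, at 6.70 and 6.61 (detection p 0.0150 and 0.0201), and Tyms, Mcm4, Foxm1 and Cdc20 each had undetected probes too. With a detection p below 0.01 on both arrays, 10 of the 31 cell cycle genes were detected. Top2a, Ccna2, Ccnb2, Ccne1, Ccne2 and Cdk1 were undetected, of which Cdk1 missed the rule on array B alone (detection p 0.0213 and 0.160).

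Chemokine, cytokine and interferon-stimulated genes were detected in 22 of 27 cases at a median of 11.53. Ccl5, a chemokine for T cells, was at 15.17 on array A and 15.31 on array B and stood 56th. Ifit3, an interferon-stimulated gene, was at 15.15 and 15.19, Cxcl1, a neutrophil chemokine, at 14.58 and 14.75, and Usp18, a brake on interferon signalling, at 13.69 and 13.75. The interferon-stimulated genes Ifitm3 (15.72 and 15.74) and Rsad2 (15.71 and 15.56) were outside the list but among the brightest 30. Tnf, Ifit1, Cxcl5, Ccl20 and Cx3cl1 were undetected. Whether these genes were this bright in the liver of the same animals was not tested. For extracellular matrix and fibrogenesis genes 11 of 28 were detected (39.3%, close to the 42.6% of all named genes), at a median of 8.80. Vtn, the plasma protein vitronectin, was the brightest at 14.36 and 14.31. The matrix proteases Mmp14 and Mmp13 were at 10.13 and 10.18 and at 10.23 and 9.90, and Col4a1, a basement membrane collagen, at 9.53 and 9.42. Col1a1, Col1a2, Col3a1, Col5a1, Col5a2 and Col6a1 were undetected.

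Most markers of macrophages and blood cells were undetected. In RNA from a whole culture, few cells of a type and little RNA per cell cannot be told apart. Kupffer cell and macrophage markers were detected in 2 of 16 cases (12.5%, against 42.6% of all named genes). That count was 4 on either array alone and 5 with detection on at least 1 array. Slc40a1, the iron exporter ferroportin that hepatocytes also express, was at 12.82 on array A and 13.17 on array B, and Cd74 at 9.35 and 9.44. Clec4f, Cd5l, Vsig4, Timd4, Marco and Adgre1 were undetected. For Adgre1, 1 probe passed on array A alone (detection p 0.0150) and another on array B alone (0.0213). Lymphocyte and neutrophil markers were detected in 0 of 17 cases, and of the erythroid and platelet markers Alas2 alone was detected among 8 (12.5%). Hba-a1, Hbb-b2, Slc4a1, Pf4, Ppbp and Gp9 were undetected. Undetected lymphocyte genes included Cd3d, Cd3e, Cd3g, Cd2, Ptprc and Cd79a.

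Of the sinusoidal endothelial markers 11 of 20 were detected (55%, against 42.6% of all named genes), and 9 of 20 at a detection p below 0.01. The median level of the 11 was 7.93, below the 9.45 of all detected genes. Egfl7 was at 10.29 on array A and 10.46 on array B, Fcgr2b at 8.98 and 8.80, Clec4g, a lectin of these cells, at 8.88 and 8.83, and Lyve1, a hyaluronan receptor, at 8.67 and 8.47. Stab2, Kdr, Flt1, Tek, Tie1 and Ehd3 were undetected. Stellate cell and fibroblast markers were detected in 4 of 16 cases (25%) and cholangiocyte markers in 4 of 12 (33.3%), against 42.6% of all named genes. Dcn, a matrix proteoglycan, was at 11.63 and 11.83, Ecm1 at 10.16 and 10.35, Reln, the secreted protein reelin, at 8.55 and 8.58 and Acta2, smooth muscle actin, at 6.80 and 6.74. Lrat, which stores vitamin A in stellate cells, was undetected with Des, Pdgfrb, Pdgfra, Hand2 and Ngfr. Cldn4, an epithelial tight junction protein, was at 14.12 and 13.90, the anion exchanger Slc4a2 at 11.06 and 11.31, Sox9 at 9.59 and 9.86 and the water channel Aqp1 at 8.63 and 8.33. The cholangiocyte keratins Krt7 and Krt19 were undetected, with Cftr, Tff2, Muc1 and Cldn7. Genes of other organs gave 2 of 27 (7.41%), namely Cela1 at 8.59 and 8.88 and Slc12a1 at 6.44 and 6.48. Ins2, Gcg, Sst, Cpa1, Myh6 and Myl2 were among the undetected.

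Agreement between the arrays set the spread against which any order must be read. Over the 7066 genes the levels of arrays A and B had a Pearson correlation of 0.991 and a Spearman correlation of 0.990 across genes, which are not independent replicates. The median SD was 0.12 and the 95th percentile 0.40 on the log2 scale. Normalization gave both arrays the same distribution, so a probe at the same position on both has equal levels by construction. Trf, at 15.85 on both arrays, read 60046.5 on array A and 58553 on array B before normalization. A difference of more than 2-fold was seen for 15 genes (0.212%) and of more than 1.5-fold for 323 (4.57%). On levels without background correction, 500 genes (7.08%) were more than 2 errors apart, where the error combines the bead standard errors of both arrays. Spread was smallest in the brightest of 10 bins by level, with a median SD of 0.09, and rose to 0.18 in the second dimmest.

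The widest gaps were found mostly for dim genes. Rrm1, a subunit of ribonucleotide reductase, read 6.27 on array A and 7.48 on array B. Tma7, C1s2, Cops7b, Cul4b and Serpinc1, the gene of antithrombin, were also higher on array B. In the other direction Isg20 read 8.80 on array A and 7.65 on array B, and Mrpl3, above the median level of detected genes, 11.37 and 10.22. S100a11 was the brightest of these genes, at 15.00 on array A and 13.90 on array B, and was read from 43 beads on array A and 26 on array B. Tcn2, Slc35f5 and Ezr completed the 6 genes that were most above on array A.

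**Figure D5:**
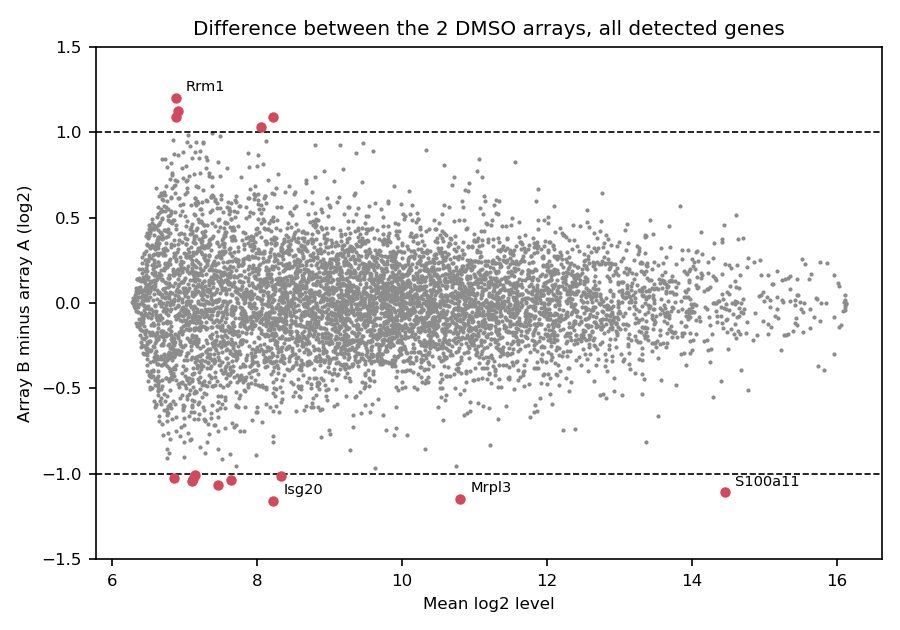
Difference in log2 level, array B minus array A, against mean log2 level for the 7066 detected genes. Dashed lines mark 2-fold, and the 15 genes beyond them (red) lie mostly below a mean level of 9, with Mrpl3 and S100a11 as the exceptions above it.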

How the data were processed

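Bead intensities, bead standard errors, bead counts and detection p-values of both DMSO arrays were taken from the unnormalized table as deposited. The authors also deposited a normalized intensity table with detection p-values, whose normalization is not stated in the sources used here. The submitters' processing notes name GenomeStudio. 1 column without a name was not used. Background was corrected with nec of limma 3.58.1 in R 4.3.3 (normexp from detection p, offset 16), and the DMSO arrays alone were quantile-normalized and put on a log2 scale. Symbols came from the platform annotation, updated through Entrez identifiers. A single symbol was found for 23978 of the 25697 probes, several for 0 and none for 1719. The choice of 1 probe per gene and the ranking were tested on simulated levels, and the correction and normalization were not.

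No groups were compared and no test was run. The members and the 38 lists were chosen with earlier results of these data known. The text names the 4 markers, the 30 brightest genes, the 4 brightest detected and up to 6 undetected members of each list, and the 6 genes with the widest gap between arrays in each direction. Lower members named for contrast (such as Mttp, Otc, Hnf4a, Cebpa, Hspa5, Fos, Nqo1, Foxm1, Cdc20 and Vim) were chosen after their values were seen. Alternatives were another detection rule, no background correction, other normalizations, an offset of 50 and the mean of a gene's detected probes. The number of beads limits the precision of each level.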

Additional observations from a re-analysis of the deposited data

How the results depend on the processing

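The number of detected genes, 7066, ranged from 6233 with a detection p below 0.01 to 7891 with detection on at least 1 array, and from 7483 to 7489 when each array was left out in turn. List members detected, 546 in all, were 560 to 569 without 1 array. The brightest 30 genes were the same 30 without background correction, in the authors' normalized table, with quantile normalization over all 6 arrays, with median scaling and with an offset of 50, and 28 of them stayed when either array was left out. The brightest 100 kept 94 to 95 without 1 array. Averaging a gene's detected probes kept 24 of the 30 and 76 of the 100, and moved Gstp1 to position 283, Rpl38 to 265 and Hspa8 to 134. Counts of genes that differ between the arrays depended on the processing. Genes more than 2-fold apart, 15 in the report, numbered 8 with a detection p below 0.01, 92 with detection on at least 1 array, 2 without background correction, 1 in the authors' table and 3 with an offset of 50. Genes more than 1.5-fold apart, 323 in the report, numbered 202, 685, 41, 39 and 168 under the same alternatives in that order. The offset and the background correction act on dim probes, where most of these genes lie. The HNF1 motif was in 0% of the promoters of the brightest 50 genes, against 2.27% for the brightest 100. TATAAA was in 28.2% of promoters for the brightest 50, 20.5% for the brightest 100 and 16.1% for the brightest 200. For the brightest 200 the exact 95% interval, 11.3% to 21.9%, held the 13.6% of all promoters. The count of detected members moved by more than 1.5 times for 5 of the 38 lists, all with at most 2 detected members. No paired analysis was possible because a single group was described and no groups were compared.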
